A study of Mus musculus with 4 samples.

Results

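The genes described here are fibronectin and a set of matricellular glycoproteins and proteoglycans, Fn1, Tnc, Postn, Sparc, Sparcl1, Thbs1, Thbs2, Vcan, Spock1 and Spock2. They were taken by symbol from a list of names, 10 of the 54532 genes in the count files, by a rule that uses no measured value. Genes and lists were, however, chosen with earlier results of these data known. All 10 were found once and all 10 passed the filter on low counts, which left 15961 tested genes. The irradiated group held 2 libraries, A and B, of cells labelled cancer-associated fibroblasts (CAFs) from mammary tumours that received targeted radiation of 6 Gy, labelled day 6. The unirradiated group held 2 libraries, A and B, of cells with the same label from tumours without radiation, also titled day 6. Both groups came from C57BL/6 mice with MMTV-PyMT tumours labelled Dll1 mcherry+, a model in which a mammary tumour virus promoter drives the polyoma middle T antigen in mammary epithelium. A PDGFRa antibody was used to detect fibroblasts in the digested tumours, but the labels do not say which fraction was sequenced, how old the animals were or how long after radiation the cells were collected.

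Provisional matrix is the temporary scaffold that cells lay down in wounds and tumours, built around fibronectin, versican and tenascin C. Matricellular proteins such as the thrombospondins, periostin and SPARC are secreted into the matrix and act less as structure than as signals, by binding integrins, growth factors and collagen. In mammary tumours many of these genes are known mainly as products of fibroblasts and other stromal cells. Several are also made by endothelial cells, platelets and epithelium.

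Total counts per library ranged from 13011489 to 23763830, and 1 count was worth 0.0403 to 0.0809 CPM (the count scaled to library size, here with TMM factors). Against the CAF label, epithelial transcripts far outweighed fibroblast ones in all 4 libraries. The 18 epithelial markers summed to 9834 ± 269 CPM in the irradiated and 11110 ± 54.9 CPM in the unirradiated group (SD, n = 2 libraries each, as for all levels below). The 17 fibroblast markers include Pdgfra, and none was at 0 counts. They summed to 1939 ± 1.51 CPM in the irradiated and 609 ± 27.0 CPM in the unirradiated group, a 3.18-fold difference. Of these markers 15 were called higher, beside 33.7% of all tested genes. Pdgfrb and Thy1 were not called (log2 fold changes 0.15 and 0.02). The collagen genes Col1a1, Col3a1 and Col1a2 gave most of the sum. They averaged 616, 510 and 353 CPM in irradiated and 184, 122 and 125 CPM in unirradiated libraries. The labels do not tell whether A and B are different animals. All p-values therefore rest on differences between libraries that may be technical repeats, and an effect of irradiation cannot be told apart from a batch shared by a group.

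Proximal promoters are shown for 3 of the genes, chosen because they stand for the different patterns described below: Vcan and Postn were higher and Spock2 was lower in the irradiated libraries. Each run is the 250 bases before the RefSeq start site on GRCm38.p6, 5′ to 3′ on the gene's strand, with matches to the searched motifs in capitals. Vcan lies at chr13:89742513-89742762 on the minus strand, Postn at chr3:54360857-54361106 on the plus strand and Spock2 at chr10:60106007-60106256 on the plus strand.
Vcan: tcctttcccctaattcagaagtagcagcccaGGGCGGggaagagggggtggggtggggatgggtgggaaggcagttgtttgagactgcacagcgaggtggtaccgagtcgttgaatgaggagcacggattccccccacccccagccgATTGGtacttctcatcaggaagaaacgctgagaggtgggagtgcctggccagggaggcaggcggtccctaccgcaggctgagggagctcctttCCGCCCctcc
Postn: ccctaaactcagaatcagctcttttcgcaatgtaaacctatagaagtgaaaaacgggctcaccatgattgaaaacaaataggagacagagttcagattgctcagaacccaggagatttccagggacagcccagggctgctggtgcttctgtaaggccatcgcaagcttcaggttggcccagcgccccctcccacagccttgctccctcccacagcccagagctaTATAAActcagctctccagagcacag
Spock2: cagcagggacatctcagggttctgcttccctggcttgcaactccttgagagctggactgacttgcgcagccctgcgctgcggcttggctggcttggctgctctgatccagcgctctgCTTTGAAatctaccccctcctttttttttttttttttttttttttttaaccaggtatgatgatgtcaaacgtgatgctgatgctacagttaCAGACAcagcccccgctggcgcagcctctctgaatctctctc

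The motifs searched on both strands were CRE (TGACGTCA), AP-1 (TGANTCA), the SP1 GC box (GGGCGG), the TATA box (TATAAA), TEAD (GGAATG), SMAD (CAGACA), TCF/LEF (CTTTGNA) and the CCAAT box (CCAAT). The Vcan window held GC box matches at positions -219 and -10 and a CCAAT box match at -103, counted back from the start site. The Postn window shown held a TATA box match at -26, a motif in 12.4% of 32851 RefSeq promoter windows of the same length. The Spock2 window held a TCF/LEF match at -133 and a SMAD match at -42, motifs in 15.7% and 17.1% of all windows. GC boxes and CCAAT boxes were in 32.7% and 33.8% of windows. Windows were found for 7 of the 10 genes. The Spock1 window held an AP-1 match at -115, a motif in 6.75% of windows, and a GC box match at -31. The Thbs2 window held SMAD matches at -67 and -44, a TATA box match at -126 and CCAAT box matches at -186 and -144, and the Sparc window held a SMAD match at -36. RefSeq gives Postn another window, with a TCF/LEF match at -181, and gives Tnc 2 windows. Both Tnc windows held a GC box match (at -167 and -246) and a TATA box match (at -126 and -205), and the second of them held a SMAD match at -71. The Sparc start site in RefSeq lies 3103 bases from the gene start in the count files. No window held a CRE or TEAD match, which were in 1.55% and 12.6% of all windows. A match is a run of letters and does not show that a factor binds there.

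The comparison asked which of these transcripts differed between irradiated and unirradiated libraries. In the irradiated libraries 8 of the 10 genes were higher and 2 were lower (edgeR quasi-likelihood test, p adjusted by Benjamini-Hochberg over all tested genes, threshold 0.05). With libraries scaled to the summed fibroblast markers in place of TMM, 3 were higher and 5 lower, and Sparc, Sparcl1 and Thbs2 turned to lower. Under that scaling 484 of all 15961 tested genes were higher and 14420 lower, so a lower call was the usual outcome. With TMM scaling 33.7% of all tested genes were called higher and 32.1% lower, so a call by itself was common in this comparison. When edgeR tested for changes beyond 1.5-fold, all 8 higher genes and Spock2 passed, where 12.7% of tested genes were higher and 10.8% lower. The groups did not overlap in CPM for any of the 10 genes, which was also so for 41.5% of tested genes in the higher and 40.9% in the lower direction. The median log2 fold change of the 10 was 1.44, against -0.01 over all tested genes. Summed over the 10 genes, the level was 3722 ± 84.2 CPM in irradiated and 1207 ± 3.88 CPM in unirradiated libraries, a 3.08-fold difference. Thbs1 alone gave 2397 CPM of that sum in irradiated and 626 CPM in unirradiated libraries. Per kilobase of gene length the summed level differed 2.76-fold. The fibroblast marker sum, to which collagen genes gave most, differed 3.18-fold.

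**Figure D1:**
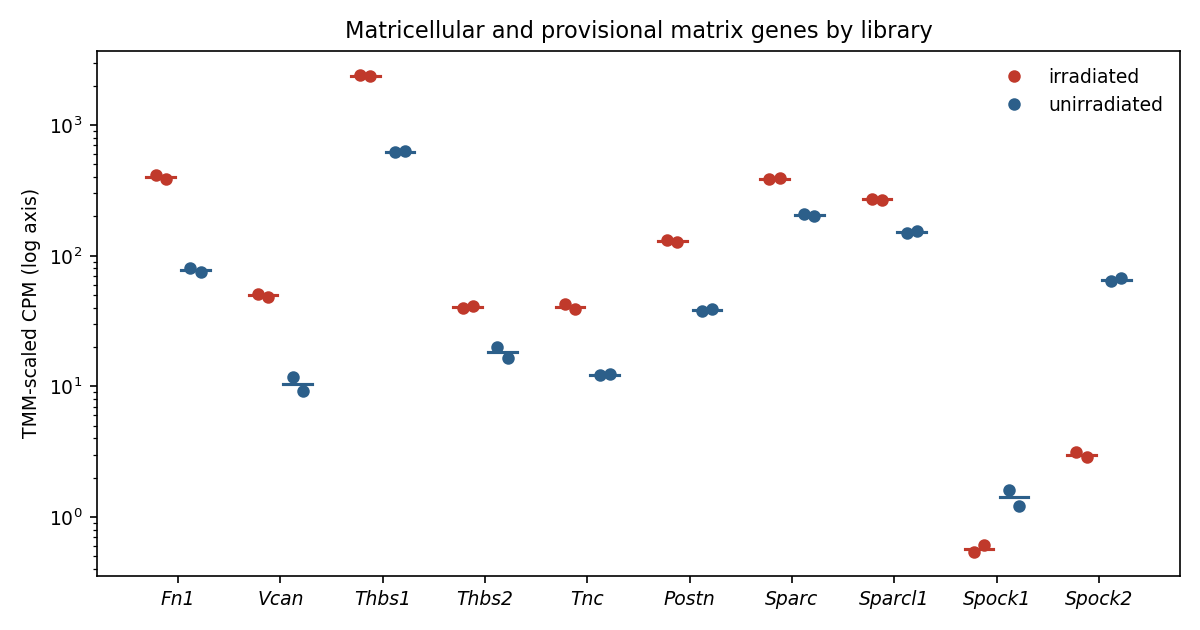
TMM-scaled CPM (log axis) of the 10 genes in each library, irradiated left of unirradiated, with points for libraries A and B and a bar for their mean. In every gene the groups are apart, with 8 genes higher and Spock1 and Spock2 lower in the irradiated libraries (with scaling to fibroblast markers Sparc, Sparcl1 and Thbs2 turn to lower), and Thbs1 is the highest of the 10 on this scale, which is not corrected for gene length.

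Fn1 encodes fibronectin, the glycoprotein that polymerises into fibrils and is bound by integrins (chromosome 1, 71585520 to 71653200, mm10, minus strand). It had 417 and 384 CPM in irradiated A and B, against 80.0 and 74.8 CPM in unirradiated A and B. The irradiated libraries were both about 5 times above the unirradiated ones, and the gap was far wider than the difference within either group. The log2 fold change was 2.37 (SE 0.0530, 5.16-fold, edgeR adjusted p = 1.33e-38), the largest rise among the 10 genes and above that of 97.3% of all tested genes. Without unirradiated A, Vcan was marginally above Fn1, at log2 fold changes of 2.43 and 2.42.

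Vcan encodes versican, a large chondroitin sulfate proteoglycan that binds hyaluronan and is cut by ADAMTS proteases (chromosome 13, 89655312 to 89742509, minus strand). Its levels were 51.3 and 48.3 CPM in irradiated A and B and 11.7 and 9.22 CPM in unirradiated A and B. The groups were clearly apart, with a log2 fold change of 2.23 (SE 0.102, edgeR adjusted p = 4.08e-25). An antisense gene, Gm4117, overlaps Vcan and the libraries do not mark strand. Gm4117 had 18 and 45 counts in irradiated A and B and 12 and 8 in unirradiated A and B, beside 853 and 1197 counts of Vcan in irradiated A and B and 196 and 114 in unirradiated A and B. The splice forms of Vcan, like those of Fn1 and Tnc, are pooled in gene counts.

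Thbs1 encodes thrombospondin 1, which binds CD47 and CD36, limits angiogenesis and can activate latent TGF-beta (chromosome 2, 118111876 to 118127133, plus strand). It had 2437 and 2357 CPM in irradiated A and B, against 623 and 629 CPM in unirradiated A and B. Both irradiated libraries were well above both unirradiated ones, and the log2 fold change was 1.94 (SE 0.0357, edgeR adjusted p = 2.32e-42). Per kilobase of gene length Thbs1 was above 99.5% of tested genes in irradiated and 97.3% in unirradiated libraries.

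Thbs2 encodes the related thrombospondin 2, also an inhibitor of angiogenesis and a regulator of collagen fibril assembly (chromosome 17, 14665500 to 14694235, minus strand). Its levels were 39.8 and 41.6 CPM in irradiated A and B and 19.9 and 16.5 CPM in unirradiated A and B. The groups did not overlap, and the log2 fold change of 1.15 (SE 0.0944, edgeR adjusted p = 2.66e-15) turned to -0.52 with scaling to fibroblast markers. Per kilobase, the ratio of Thbs2 to Thbs1 was 0.0142 and 0.0153 in irradiated A and B, against 0.0277 and 0.0228 in unirradiated A and B. Thbs2 was thus far below Thbs1 in all 4 libraries, and its ratio to Thbs1 was smaller in the irradiated ones. An exact two-sided rank test of 2 against 2 libraries cannot go below 0.3333, and ratios are given here as values without a test.

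Tnc encodes tenascin C, a hexameric glycoprotein of wounds and tumour stroma (chromosome 4, 63959785 to 64047015, minus strand). It was at 42.8 and 38.9 CPM in irradiated A and B and 12.2 and 12.5 CPM in unirradiated A and B. The groups were apart, with a log2 fold change of 1.72 (SE 0.101, edgeR adjusted p = 8.73e-21). Postn encodes periostin, which binds collagen, tenascin C and integrins (chromosome 3, 54361109 to 54391037, plus strand). Periostin transcripts were at 132 and 127 CPM in irradiated A and B, against 37.6 and 38.9 CPM in unirradiated A and B. The 2 genes differed by nearly the same factor, with a log2 fold change of 1.76 for Postn (SE 0.0631, edgeR adjusted p = 9.84e-30). Neither call held with scaling to fibroblast markers, where the log2 fold changes were 0.06 for Tnc (adjusted p = 0.628) and 0.09 for Postn (adjusted p = 0.276, both by edgeR with Benjamini-Hochberg adjustment).

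Sparc encodes osteonectin, a collagen-binding glycoprotein needed for fibril maturation (chromosome 11, 55394500 to 55423183, minus strand). It had 384 and 395 CPM in irradiated A and B, against 209 and 201 CPM in unirradiated A and B. The groups did not overlap, yet the log2 fold change of 0.93 (SE 0.0453, edgeR adjusted p = 5.60e-24) was among the smaller ones of the 10 genes, and it turned to -0.74 with scaling to fibroblast markers. Sparcl1 encodes the SPARC-like protein hevin (chromosome 5, 104079111 to 104113733, minus strand). Hevin transcripts were at 274 and 267 CPM in irradiated A and B and 151 and 154 CPM in unirradiated A and B. The groups were apart, with a log2 fold change of 0.83 (SE 0.0482, edgeR adjusted p = 6.77e-21) that turned to -0.84 with scaling to fibroblast markers. The ratio of Sparcl1 to Sparc per kilobase was 0.918 and 0.872 in irradiated A and B and 0.928 and 0.991 in unirradiated A and B, so these 2 genes kept nearly the same proportion.

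Spock2 encodes testican 2, a calcium-binding proteoglycan of the extended SPARC family (chromosome 10, 60106219 to 60135198, plus strand). It had 3.13 and 2.86 CPM in irradiated A and B, against 63.7 and 67.0 CPM in unirradiated A and B. Both irradiated libraries were far below both unirradiated ones, from 52 and 71 counts against 1067 and 828. The log2 fold change was -4.45 (SE 0.116, 21.9-fold lower, edgeR adjusted p = 7.44e-36), and only 0.282% of tested genes had a lower one. Scaling to fibroblast markers gave -6.12.

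Spock1 encodes testican 1, and its gene spans a long stretch of chromosome 13 (57421195 to 57908332, minus strand). It was near the limit of detection, with 9 and 15 counts in irradiated A and B and 27 and 15 counts in unirradiated A and B. In CPM these were 0.541 and 0.605 in irradiated and 1.61 and 1.21 in unirradiated libraries, a gap of few reads. The log2 fold change was -1.30 (SE 0.471, edgeR adjusted p = 0.0141). The call was lost without unirradiated A (-1.06), without irradiated A (-1.21), without irradiated B (-1.37), with DESeq2 (-1.27) and against 1.5-fold, with adjusted p between 1.31e-09 (edgeR with scaling to fibroblast markers) and 0.182 (DESeq2) over 13 alternatives. Spock3, the remaining testican gene, was not tested for want of counts.

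**Figure D2:**
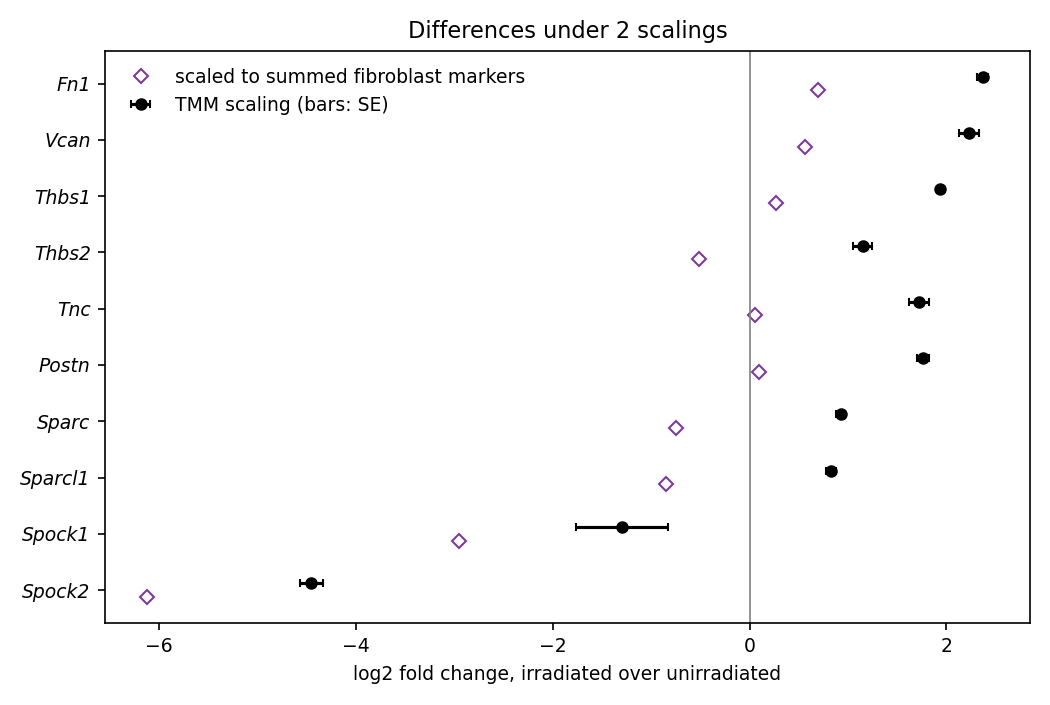
Log2 fold changes (irradiated over unirradiated) of the 10 genes with TMM scaling (filled points, bars are SE) and with libraries scaled to the summed fibroblast markers (open diamonds). With TMM scaling 8 genes lie above 0; with fibroblast scaling Fn1, Vcan and Thbs1 lie above it, Tnc and Postn near it, and Thbs2, Sparc, Sparcl1, Spock1 and Spock2 below it.

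The 10 genes were therefore not shifted by a common factor. Relative to fibroblast markers, whose use as a scale moved the median log2 fold change of all genes to -1.67, Fn1 was higher by 0.70, Vcan by 0.57 and Thbs1 by 0.26 on the log2 scale. Fn1 transcripts equalled 21.5% and 19.8% of the summed fibroblast marker CPM in irradiated A and B, against 12.7% in both unirradiated libraries. Sparc equalled 19.8% and 20.4% of that sum in irradiated A and B, against 33.3% and 34.0% in unirradiated A and B. These shares moved in opposite directions while both transcripts had more CPM in the irradiated libraries. In bulk RNA, more cells of a type and more RNA per cell cannot be told apart, and the part of a changed cell mix in these differences was not tested.

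Per kilobase of gene length, the levels can be compared between genes. In irradiated libraries the order was Thbs1 (395 ± 9.27 CPM per kb), Sparc (103 ± 1.95), Sparcl1 (92.0 ± 1.58), Fn1 (34.3 ± 2.00), Postn (14.9 ± 0.410), Thbs2 (5.81 ± 0.180), Tnc (5.25 ± 0.355), Vcan (3.44 ± 0.147), Spock2 (0.541 ± 0.0335) and Spock1 (0.0685 ± 0.00541). In unirradiated libraries it was Thbs1 (103 ± 0.702 CPM per kb), Sparc (54.1 ± 1.61), Sparcl1 (51.9 ± 0.871), Spock2 (11.8 ± 0.427), Fn1 (6.63 ± 0.312), Postn (4.40 ± 0.108), Thbs2 (2.60 ± 0.345), Tnc (1.58 ± 0.0264), Vcan (0.723 ± 0.121) and Spock1 (0.169 ± 0.0336). Spock2 was thus the fourth most abundant of the 10 transcripts in the unirradiated and the ninth in the irradiated libraries. The order of the others was the same in both groups. Sparc and Sparcl1 were close neighbours in unirradiated libraries, at 55.2 and 52.9 against 51.2 and 52.5 CPM per kb, a difference of the order of the spread between libraries.

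Thbs1 made up 60.6% and 60.1% of the summed per-length level of the 10 genes in irradiated A and B, against 43.3% and 43.8% in unirradiated A and B. Fn1 made up 5.39% and 5.09% in irradiated and 2.89% and 2.71% in unirradiated libraries. Sparc and Sparcl1 made up 15.7% and 14.1% on average in irradiated libraries and 22.8% and 21.9% in unirradiated libraries. Within the Fn1-based scaffold, the per-kilobase ratio of Vcan to Fn1 was 0.0993 and 0.102 in irradiated A and B and 0.118 and 0.0996 in unirradiated A and B, and these ranges overlapped. The ratio of Tnc to Fn1 was lower, at 0.154 and 0.152 in irradiated A and B against 0.229 and 0.250 in unirradiated A and B, and that of Postn to Fn1 was 0.426 and 0.445 in irradiated A and B against 0.631 and 0.698 in unirradiated A and B.

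**Figure D3:**
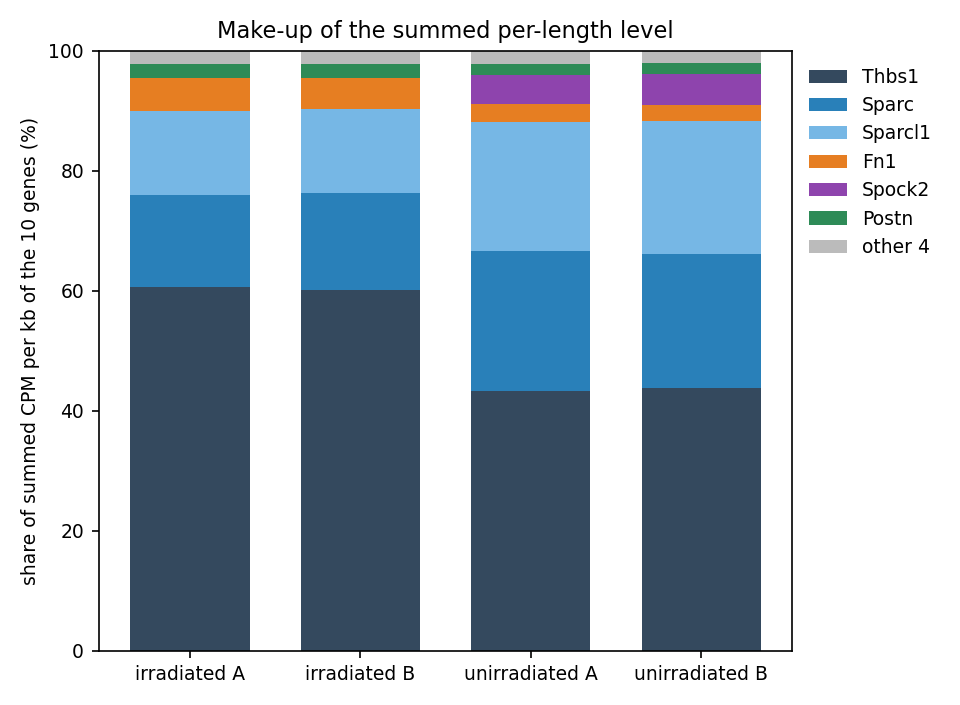
Share (%) of each gene in the summed CPM per kb of the 10 genes, per library, irradiated left of unirradiated, with Tnc, Thbs2, Vcan and Spock1 pooled as the other 4. Thbs1 fills about 60% of the irradiated and 43% of the unirradiated bars, and the Spock2 block of the unirradiated bars is too thin to see in the irradiated ones.

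Other matricellular and provisional matrix genes largely moved the same way with TMM scaling. Of 33 tested, 26 were higher and 3 lower (median log2 fold change 1.27), beside 33.7% higher and 32.1% lower of all tested genes. With scaling to fibroblast markers 14 were higher and 15 lower. The latter scaling called 484 of all 15961 tested genes higher and 14420 lower. Fgb, a fibrinogen chain, was at 18.0 CPM in irradiated and 0.439 CPM in unirradiated libraries on average (log2 fold change 5.21). Wisp2, a CCN family matricellular gene, was at 21.5 CPM in irradiated and 3.12 CPM in unirradiated libraries (2.76). Acan, the aggrecan core protein, was at 4.50 CPM in irradiated and 0.620 CPM in unirradiated libraries (2.81). Comp, a cartilage thrombospondin also known as thrombospondin 5, ran the other way, at 6.13 CPM in irradiated and 104 CPM in unirradiated libraries (-4.07). Spock2 and Comp were the 2 steep falls of the extended family. Smoc2, another SPARC family gene, was also lower (-1.20), as was Fbln1 (-0.61). Smoc2 and Fbln1 were named after their values were seen.

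Receptors that bind these proteins were 17 higher and 0 lower of 20 tested (median 0.93), beside 33.7% higher and 32.1% lower of all tested genes. With scaling to fibroblast markers 3 were higher and 11 lower, beside 484 higher and 14420 lower of all 15961 tested genes. Itga5, the alpha chain of the classical fibronectin receptor, was at 47.8 CPM in irradiated and 12.3 CPM in unirradiated libraries (log2 fold change 1.94). Itga9, a tenascin C receptor chain, averaged 54.4 CPM in irradiated and 13.4 CPM in unirradiated libraries (2.02). Itgb8, a chain of a TGF-beta-activating integrin, averaged 67.9 CPM in irradiated and 15.9 CPM in unirradiated libraries (2.10). Other integrin chains of the list differed less, such as the widely shared beta chain gene Itgb1 at 0.58, given after its value was seen. Lrp1, the endocytic receptor that clears thrombospondins, averaged 146 CPM in irradiated and 41.1 CPM in unirradiated libraries (1.82). The thrombospondin receptor Cd47 moved less, with a log2 fold change of 0.30, and Cd36 was at 1.52, both given after their values were seen.

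Proteases and modifiers of these proteins were 18 higher and 1 lower of 21 tested (median 1.28), beside 33.7% higher and 32.1% lower of all tested genes. With scaling to fibroblast markers, a list that shares Fap and Mmp2 with this one, 6 were higher and 12 lower. Of all 15961 tested genes that scaling called 484 higher and 14420 lower. Adamts1, a protease that cuts versican, was at 488 CPM in irradiated and 110 CPM in unirradiated libraries (log2 fold change 2.14). Has1, a synthase of the hyaluronan that versican binds, averaged 9.72 CPM in irradiated and 0.522 CPM in unirradiated libraries (4.22). Both were named as being among the largest changes of the list. The inhibitor Timp3 averaged 237 CPM in irradiated and 36.8 CPM in unirradiated libraries (2.68), and the stromelysin Mmp3 averaged 15.8 CPM in irradiated and 3.41 CPM in unirradiated libraries (2.16). Mmp9, a gelatinase, was the lower member (-1.73), singled out after its value was seen.

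Genes of the TGF-beta, SRF and YAP pathways, known regulators of several of these genes, were called in both directions about as often as tested genes at large. Of 24 tested, 10 were higher and 8 lower (median 0.05), beside the 33.7% higher and 32.1% lower of all tested genes. With scaling to fibroblast markers 1 was higher and 23 lower, beside 484 higher and 14420 lower of all 15961 tested genes. Ankrd1, a YAP target, was at 23.4 CPM in irradiated and 1.41 CPM in unirradiated libraries (log2 fold change 4.05). Tead1, a DNA-binding partner of YAP, averaged 120 CPM in irradiated and 46.4 CPM in unirradiated libraries (1.36), while its paralog Tead2, named after its value was seen, was lower (-0.76). The latent TGF-beta binding protein gene Ltbp1 was also higher (1.21), while Ltbp2, named after its value was seen, was lower (-0.91).

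**Figure D4:**
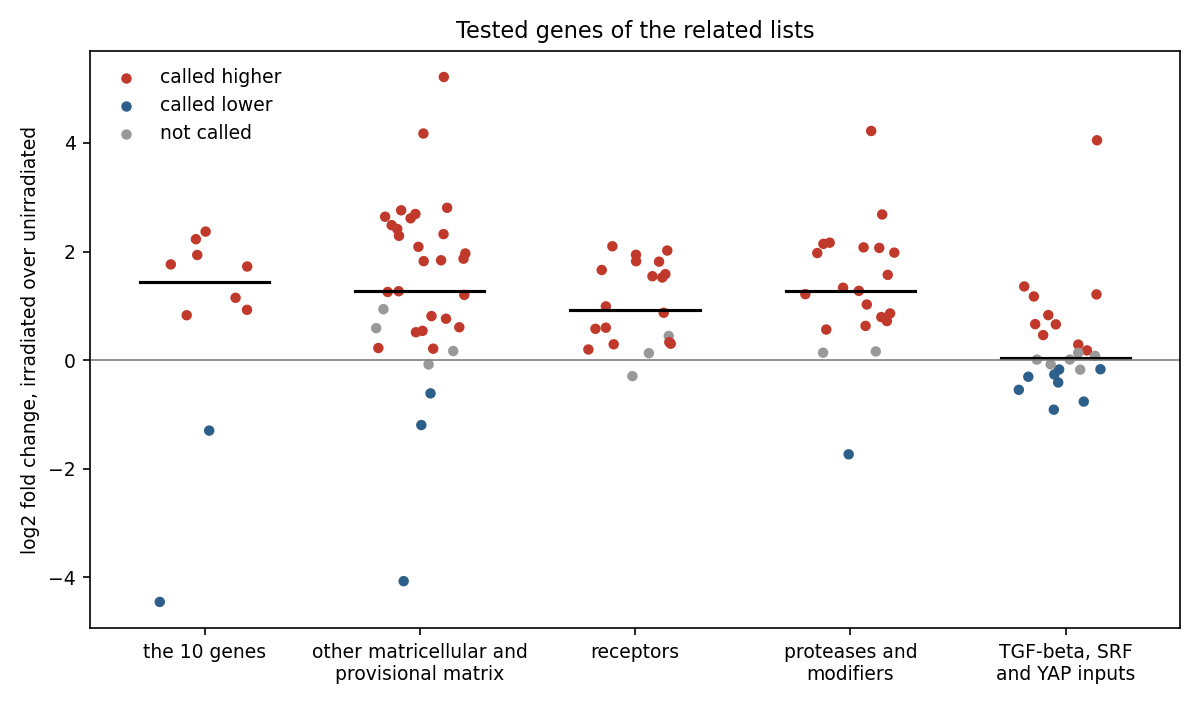
Log2 fold changes (irradiated over unirradiated, TMM scaling) of the tested genes of each list, with points coloured by their call and a bar for the list's median. The medians lie at 1.44, 1.27, 0.93, 1.28 and 0.05 from left to right. With scaling to fibroblast markers all 5 lists hold more lower than higher calls, as do all tested genes (484 higher, 14420 lower).

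Markers of other cell types that can make these proteins moved in the same libraries. The calls given here stand beside 33.7% higher and 32.1% lower of all tested genes. Macrophage markers summed to 854 ± 0.546 CPM in irradiated and 343 ± 1.30 CPM in unirradiated libraries, with 13 of 14 called higher. Cd14 alone gave 297 CPM of that sum in irradiated and 73.0 CPM in unirradiated libraries, and Itgam was not called (log2 fold change -0.35). Endothelial markers summed to 219 ± 8.27 CPM in irradiated and 105 ± 2.57 CPM in unirradiated libraries, with 12 of 14 higher, and pericyte and smooth muscle markers to 501 ± 4.06 CPM in irradiated and 281 ± 6.01 CPM in unirradiated libraries, with 8 of 14 higher. Each of these sums changed less than the 3.18-fold of the fibroblast markers. Platelet and megakaryocyte markers summed to 12.4 ± 0.300 CPM in irradiated and 19.1 ± 0.0965 CPM in unirradiated libraries, with 1 of 4 tested called higher and 2 lower. Itga2b alone gave 7.29 CPM of that sum in irradiated and 13.0 CPM in unirradiated libraries, and Pf4, which encodes platelet factor 4, was the one called higher (0.84). One of the 11 genes on the list was at 0 counts in every library. Lymphocyte markers summed to 6.24 ± 0.654 CPM in irradiated and 17.4 ± 0.400 CPM in unirradiated libraries, with 7 of 8 tested called lower. Schwann cell markers, a list that shares Erbb3 with the epithelial one, summed to 564 ± 3.83 CPM in irradiated and 727 ± 16.5 CPM in unirradiated libraries, with 5 of 7 tested lower and 1 higher. Sox10 alone gave 375 CPM of that sum in irradiated and 475 CPM in unirradiated libraries. The shared gene Erbb3 gave 126 CPM in irradiated and 176 CPM in unirradiated libraries, so these genes made up most of the sum. Of the epithelial markers 13 were lower and 2 higher. The part of these cell types in the differences of the 10 genes was not tested.

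**Figure D5:**
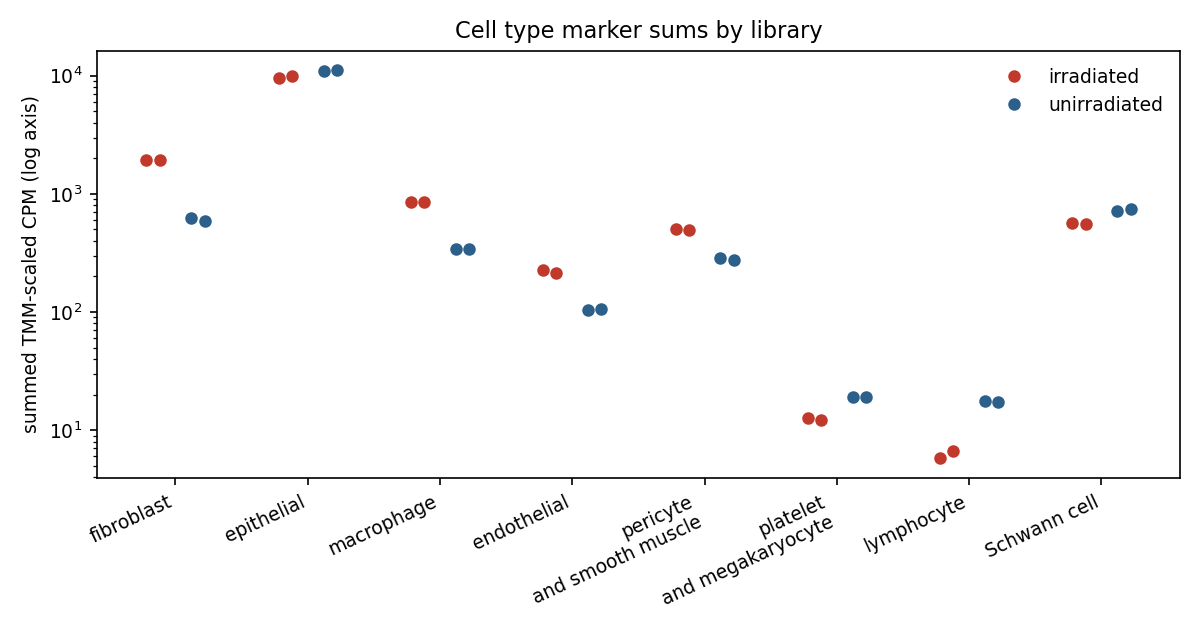
Summed TMM-scaled CPM (log axis) of the markers of each cell type per library, irradiated left of unirradiated. Epithelial markers are the highest at 9643 to 11149 CPM, and fibroblast, macrophage, endothelial and pericyte sums are higher while the epithelial, platelet, lymphocyte and Schwann cell sums are lower in the irradiated libraries.

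The genes whose 4 log2 CPM values, centred on their mean, lay nearest to those of Fn1 were Fbln5, Wnt5b and Dclk1, at Euclidean distances of 0.0774, 0.0955 and 0.0996 among 12908 genes compared. Fbln5 encodes the elastic fibre protein fibulin 5 and was at 52.0 CPM in irradiated and 9.70 CPM in unirradiated libraries. Comp was among the nearest genes to Spock2, at a distance of 0.428. With 4 libraries in 2 groups such likeness reflects mainly the size of the difference between the groups.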

How the data were processed

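RNA sequencing counts of 4 libraries were analysed. The values used are raw counts per gene as deposited by the authors, in whole numbers, beside gene coordinates and lengths. The submitters' processing notes name mm10, DESeq2, STAR 2.5 and HTSeq 0.6.1. The sources used here give neither settings nor annotation for them, and the library kit does not mark strand, per the labels' protocols. Coordinates of all 10 genes equal those of GENCODE release M21 on GRCm38.

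Counts were filtered with filterByExpr, scaled with TMM and tested with edgeR 4.0.16 in R 4.3.3 (quasi-likelihood fit and F-test over 15961 genes, Benjamini-Hochberg adjustment, threshold 0.05). SE is the size of the log2 fold change divided by the square root of the F statistic. The code was tested on simulated data. Promoter sequences are from RefSeq (GRCm38.p6). Named genes are the 10 genes, up to 4 called genes of each related list with the largest change and a mean of at least 1 CPM, and the nearest genes by pattern, and some genes these rules name are not reported here. Genes and lists were chosen with earlier results of these data known. The alternatives tried were DESeq2 1.42.0, upper-quartile and RLE scaling, no filter (at least 1 count), a filter of 1 CPM in 2 libraries, a replicate block, a test against 1.5-fold, removal of a trend with gene length, scaling to fibroblast markers, and leaving out each library. Fits with 1 library left in a group assume that it varies like the others. Within groups, the median chi-square statistic of genes with at least 20 summed counts was 2.14 (irradiated) and 2.11 (unirradiated) times that of counting alone, and the common biological coefficient of variation was 3.86%. Neither value tells separate animals from repeat preparations, and each library was treated as a replicate because the labels list it as a sample of its own.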

Additional observations from a re-analysis of the deposited data

How the results depend on the processing

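Of 130 log2 fold changes (10 genes under 13 alternatives), 120 kept their direction and side of the threshold, 7 lost the call and 3 reversed. All 3 reversals came from scaling to fibroblast markers, at -0.74 for Sparc, -0.84 for Sparcl1 and -0.52 for Thbs2. That scaling left 3 members higher and 5 lower, and 484 genes higher and 14420 lower of all tested, since it shifts every gene down. The test against 1.5-fold, a stricter question by construction, called 2034 genes higher and 1725 lower and 1 member lower. DESeq2 also called 1 member lower. Removal of the trend with gene length left 8 members higher and 2 lower, and made every rise but that of Sparcl1 smaller. The log2 fold changes were then 2.07 for Fn1, 1.91 for Vcan, 0.94 for Thbs2 and 0.88 for Sparcl1. Leaving out single libraries left 1 to 2 members lower, since Spock1 lost its call in 3 of the 4 cases, and 8 higher in each case. The library letters A and B do not pair the samples by any label, and deviations of same-lettered libraries were almost uncorrelated over 15961 genes (r = 0.0116). With the letter as a replicate block 8 members were higher and 2 lower, and 5385 and 5080 genes of all tested. Depth limits the Spock1 result most among the 10 genes, with 9 to 27 counts per library.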
